A study of Rattus norvegicus with 6 samples.

Results

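The genes described here mark the enteric nervous system and the pacemaker cells of the gut wall. They comprise 5 genes of neurons (Elavl4, Uchl1, Vip, Tac1 and Nos1), 2 of glia (S100b and Sox10) and 2 of interstitial cells of Cajal (Kit and Ano1). Array probes were assigned to them through the transcript accession that each probe carries, which gave 13 probes for these 9 genes among the 15168 genes that could be named on the array. Colon RNA was measured on single-color Agilent arrays, 1 array per rat, in 3 rats of the S.LEW congenic strain, called C1 to C3, and 3 of the S strain, called S1 to S3. The S rat is the inbred Dahl salt-sensitive strain, and the S.LEW congenic strain has Lewis alleles in a small interval on that background. All 6 rats ate a diet with 0.3% NaCl, received 2 injections of 15 mg per kg of the colon carcinogen azoxymethane (AOM) from 6 weeks of age, and gave colon tissue at 30 weeks. No rat without AOM was measured, so that the strains are compared in treated animals alone.

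The enteric nervous system lies in the wall of the gut as plexuses of neurons wrapped by glia. Its excitatory motor neurons use acetylcholine and substance P, the product of Tac1, and its inhibitory motor neurons use VIP and the nitric oxide made by the enzyme encoded by Nos1. Interstitial cells of Cajal generate the electrical slow waves that pace the smooth muscle, and they depend on the receptor tyrosine kinase Kit and on the chloride channel Ano1.

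The signals were quantile-normalized, which gives every array the same distribution, and are given on the log2 scale, where a difference of 1 is 2-fold; SE stands for the standard error from limma. The median raw intensity was 273 in C1, 214 in C2, 291 in C3, 594 in S1, 219 in S2 and 445 in S3, while from 73.8% (C2) to 87.6% (S3) of spots were well above background. Testing required a probe to be well above background on 3 or more of the 6 arrays, which 23975 probes were, among them 11 of the 13 probes and 8 of the 9 genes described here. Where a gene had several probes, the one with the highest mean signal stands for it. S2 stood apart from the other S rats. Across probes its array correlated at 0.967 to 0.976 with the congenic arrays, at 0.900 with S1 and at 0.937 with S3, and results are therefore given with and without it. With 3 rats per strain, a two-sided exact permutation test of 1 gene had 0.10 as its smallest possible p.

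Neuronal genes were low in S1, intermediate in S3 and high in S2 and the congenic rats. Elavl4, which encodes the RNA-binding protein HuD of differentiated neurons, had a log2 signal of 9.03 in C1, 8.30 in C2, 9.77 in C3, 7.02 in S1, 9.52 in S2 and 7.90 in S3. S1 and S3 lay below every congenic rat, and S2 lay above C1 and C2, so that the strains overlapped. S.LEW over S gave a log2 fold change of 0.88 (SE 0.69, limma adjusted p = 0.553), with a two-sided exact permutation p of 0.40. Uchl1 encodes the ubiquitin hydrolase PGP9.5, the general stain for enteric neurons. Its log2 signals were 12.95 in C1, 12.29 in C2, 13.42 in C3, 10.97 in S1, 13.35 in S2 and 11.77 in S3. The order of the rats was the same as for Elavl4, S1 lowest and C3 highest, and the log2 fold change was 0.86 (SE 0.63, limma adjusted p = 0.534). In whole colon tissue, fewer cells of a type and less RNA per cell cannot be told apart, for these and all genes below.

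Tac1 encodes the precursor of substance P and neurokinin A. Its brighter probe gave a log2 signal of 10.29 in C1, 9.61 in C2, 10.71 in C3, 8.12 in S1, 11.05 in S2 and 9.30 in S3. The second probe gave lower signals in the same order of rats, from 6.40 in S1 to 9.48 in S2. S2 was above all congenic rats at both probes, and S1 and S3 were below all of them. Both gave similar differences, the log2 fold change being 0.72 (SE 0.74) at the brighter probe and 0.76 (SE 0.78) at the other, where limma gave adjusted p values of 0.644 and 0.640.

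Vip, which encodes vasoactive intestinal peptide, varied most among the member genes, over a range of 3.07 on the log2 scale. Rat by rat, its log2 signals were 10.31 in C1, 10.23 in C2, 10.52 in C3, 8.91 in S1, 11.98 in S2 and 10.13 in S3. The congenic rats were close together, with 10.35 ± 0.15 (SD, n = 3), and the S rats were spread on both sides of them, with 10.34 ± 1.55 (SD, n = 3). The log2 fold change was 0.02 (SE 0.73, limma adjusted p = 0.991). Its 95% confidence interval ran from -1.73 to 1.77, that is, from 0.301-fold to 3.41-fold, so that a difference of 2-fold in either direction was not detectable with these arrays.

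Nos1, which encodes the neuronal nitric oxide synthase, had 2 probes, and neither was tested. One was well above background on none of the 6 arrays and the other in S2 only. Their log2 signals lay between 2.44 and 5.25, and no fold change is given. The authors' table of normalized values has no row for either probe.

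The promoters of Vip, Tac1 and Nos1 are shown because these genes make the transmitters discussed above and because Vip and Tac1 had their lowest signal in S1 and their highest in S2. The sequences are those of RefSeq for the GRCr8 assembly, whose table matched 8 of the 9 genes, with no entry for Sox10. Each is the stretch of 250 bases before the start that the table gives, 5' to 3' on the strand of the gene, with capitals for the core of the cAMP response element (TGACGTC, sought on both strands). The Vip stretch lies at chr1:44470230-44470479 on the plus strand, that of Tac1 at chr4:36645333-36645582 on the plus strand and that of Nos1 at chr12:44371838-44372087 on the minus strand.
Vip: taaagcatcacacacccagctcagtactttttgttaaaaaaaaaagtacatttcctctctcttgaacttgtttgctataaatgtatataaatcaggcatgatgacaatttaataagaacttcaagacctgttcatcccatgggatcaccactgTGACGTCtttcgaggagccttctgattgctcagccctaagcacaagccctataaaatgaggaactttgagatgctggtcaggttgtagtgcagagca
Tac1: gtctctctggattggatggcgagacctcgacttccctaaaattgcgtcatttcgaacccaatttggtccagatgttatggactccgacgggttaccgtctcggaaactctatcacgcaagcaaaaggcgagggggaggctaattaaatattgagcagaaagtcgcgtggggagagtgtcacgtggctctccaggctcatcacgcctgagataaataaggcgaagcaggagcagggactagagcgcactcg
Nos1: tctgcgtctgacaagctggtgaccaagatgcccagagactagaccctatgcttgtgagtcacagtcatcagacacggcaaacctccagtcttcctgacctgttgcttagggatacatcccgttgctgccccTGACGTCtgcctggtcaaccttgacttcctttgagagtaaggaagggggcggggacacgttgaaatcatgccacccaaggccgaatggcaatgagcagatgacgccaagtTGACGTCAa

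The core was present in the stretches of Vip, where it began 97 bases before the start, and of Nos1, where it began 119 bases and again 9 bases before the start, the latter overlapping a match on the other strand. It was in none of the other 6 stretches searched, and 2.80% of all 33469 promoters held it in the same window. The TATA box (TATAAA) was found on the strand of the gene for Vip, on the opposite strand alone for Uchl1, and on either strand in 12.9% of all promoters. The E-box CACGTG was found for Tac1 and in 5.59%, and the AP-1 site TGANTCA for Nos1 and in 6.34%. These are matches of letters, and whether a factor bound there was not measured.

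**Figure D1:**
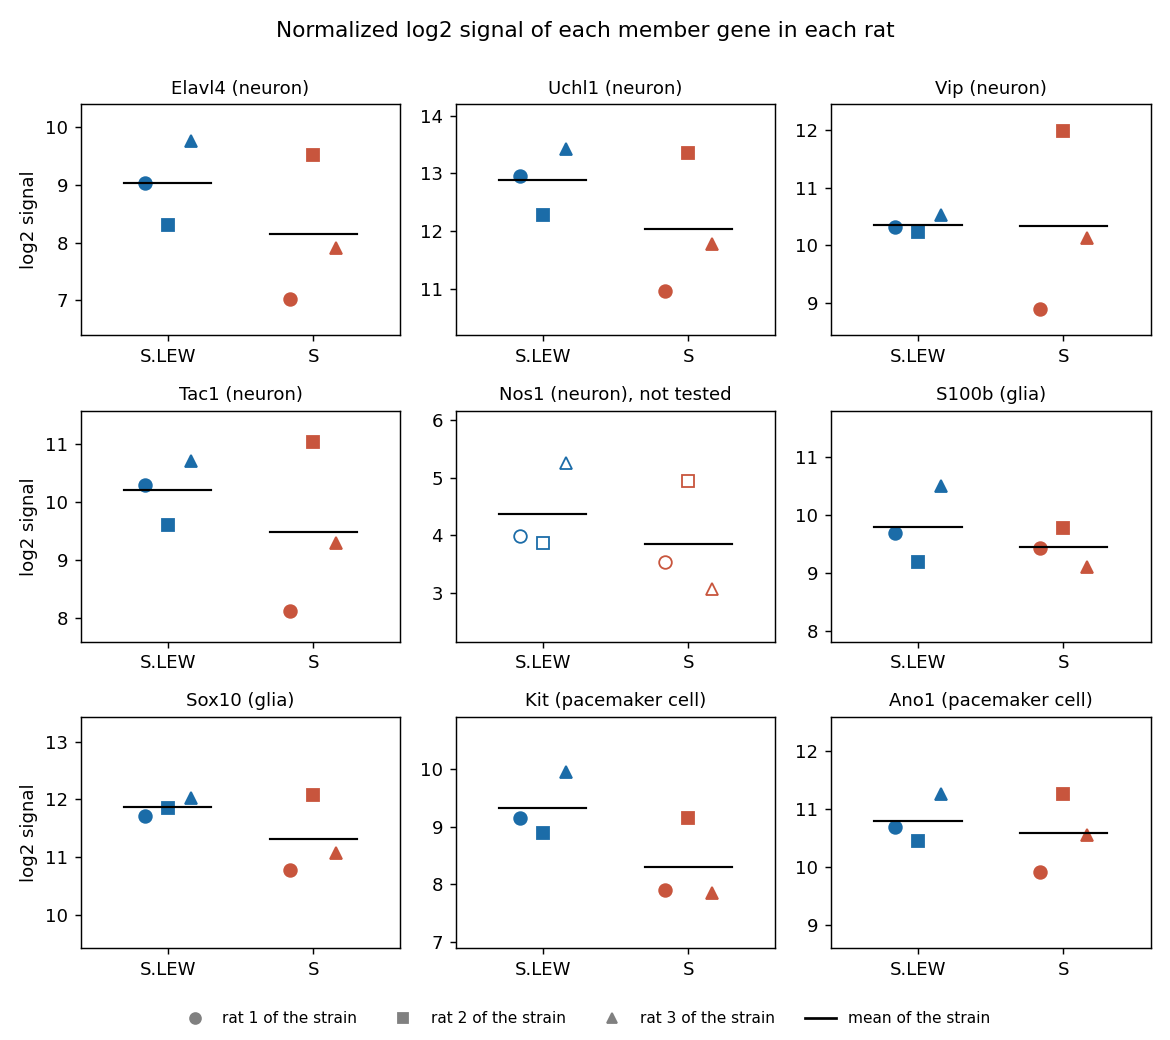
Normalized log2 signal (vertical axis, 4 log2 units in every panel) of the brightest probe of each of the 9 genes in the 3 S.LEW and the 3 S rats, with symbols for the rat and a line for the mean of the strain. Open symbols mark Nos1, which was not tested. Among the tested genes, the square of S2 lies far above those of the other S rats for Elavl4, Uchl1, Tac1, Vip, Sox10 and Kit.

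The glial genes differed less between rats. Sox10, the transcription factor that maintains enteric glia and their neural crest progenitors, had a log2 signal of 11.72 in C1, 11.85 in C2, 12.01 in C3, 10.77 in S1, 12.07 in S2 and 11.07 in S3. The congenic rats spanned a narrow range, S1 and S3 were below it and S2 just above it. Between strains Sox10 had a log2 fold change of 0.55 (SE 0.35, limma adjusted p = 0.496). S100b encodes a calcium-binding protein of glia that adipocytes also make. Its brighter probe had a log2 signal of 9.69 in C1, 9.19 in C2, 10.51 in C3, 9.44 in S1, 9.78 in S2 and 9.10 in S3. Here S1 was not the lowest rat and the strains overlapped widely, with a log2 fold change of 0.36 (SE 0.37, limma adjusted p = 0.649). The dimmer probe of S100b gave 0.02 (SE 0.39), with S1 second only to C3.

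Among the genes of interstitial cells of Cajal, Kit had the largest difference of the 8 genes tested. Its log2 signal came to 9.14 in C1, 8.89 in C2, 9.94 in C3, 7.91 in S1, 9.16 in S2 and 7.85 in S3. S1 and S3 lay below all congenic rats, and S2 lay between C1 and C3. Congenic rats averaged 9.32 ± 0.55 (SD, n = 3) and S rats 8.30 ± 0.74 (SD, n = 3), which gave a log2 fold change of 1.02 or 2.03-fold (SE 0.45, limma adjusted p = 0.393). Its 95% confidence interval reached from -0.06 to 2.10, and the two-sided exact permutation p was 0.30. Ano1, the calcium-activated chloride channel behind the slow wave, had a log2 signal of 10.68 in C1, 10.45 in C2, 11.26 in C3, 9.92 in S1, 11.27 in S2 and 10.56 in S3. Only S1 was below all congenic rats, and the log2 fold change was 0.21 (SE 0.39) at this probe and 0.43 (SE 0.42) at a dimmer one, where S3 was also below them.

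Kit is also carried by mast cells and melanocytes. Of the 11 mast cell markers, 10 were on the array and 9 were tested. At the cut-offs given below, none was higher and 3 (Cpa3, Ms4a2 and Cma1) were lower in the congenic rats, against 2.63% of all tested genes. These 3 were well above background in no congenic rat and in all S rats. They thus entered the test only through the strain where they were high. Cma1, a mast cell chymase, had an S.LEW signal at least 4.56-fold lower, as bounded by the dimmest detected signal on each congenic array, and Cpa3, the mast cell carboxypeptidase, at least 1.43-fold lower, while for Ms4a2 no fold could be bounded. The bound for Cma1 rests on S1 (8.34) and S3 (8.00), since S2 (5.40) was near C2 (5.31), and its fitted log2 fold change was -1.75 without S1 and -3.22 without S2. With normexp background correction Ms4a2 (-0.38) and Cpa3 (-0.41) did not pass. On the linear scale, the signals of the mast cell list summed to 595 in C1, 737 in C2, 1033 in C3, 3891 in S1, 835 in S2 and 3244 in S3, while its brightest gene by mean log2 signal was Mcpt1. The sum was highest in S1 and S3, the rats with the lowest Kit signal, where most of it came from Hpgds, with log2 signals of 11.30 and 10.89 in these rats and 3.65 to 5.42 in the others. Cpa3 no longer passed without C1, C2, S1 or S3, nor Cma1 without C1, C3, S1 or S3, and the part of mast cells in the value of Kit was not tested. Of the melanocyte markers, 3 of 5 were on the array; Mlana was well above background in no rat and Tyr and Tyrp1 in 1 S rat each.

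None of the 8 genes passed the cut-offs of the study's methods, a 2-fold change at an unadjusted p under 0.05, which 5.58% of all tested probes did in limma, 3.23% as higher in S.LEW. None had an unadjusted p under 0.05, against 13.0% of all probes, or an adjusted p under 0.05, which no probe on the array had (0%). The methods' t-test likewise gave 0 of the 8 genes past the cut-offs, against 686 of all tested probes. In none of them were the strains apart, against 17.7% of all probes. All 8 log2 fold changes were above 0, as were 51.3% of all, and their median was 0.63, against 0.01 over all probes. The order of the rats was much alike from gene to gene. S1 and S3 were the lowest pair in 6 of the 8 genes, as they were at 28.3% of all probes, and S2 was the highest S rat in 8 of 8. Among the congenic rats C3 was the highest in 8 genes and C2 the lowest in 7. The SD between rats was larger in S than in S.LEW in 7 of the 8, as at 70.8% of all probes, with medians of 0.97 and 0.55 on the log2 scale, against 0.37 and 0.22 over all probes.

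Without S2, the 8 log2 fold changes ran from 0.53 (S100b) to 1.57 (Elavl4), with a median of 1.19 against 0.06 over all probes. In 6 genes, all but S100b and Ano1, every congenic rat then lay above both remaining S rats, which held for 32.4% of all probes. Elavl4, Uchl1, Tac1 and Kit passed the cut-offs as higher in the congenic rats, which 10.0% of all probes did. At an adjusted p under 0.05 from limma, 12.5% of all probes were higher, Sox10 (log2 fold change 0.94, SE 0.18, adjusted p = 0.0244) and Kit (1.45, SE 0.33, adjusted p = 0.0360) among them. S2 was singled out for its likeness to the congenic arrays and was the highest S rat in all 8 genes. Leaving it out therefore had to raise each of the 8 differences. The p values and calls without S2, here and below, do not allow for that choice. Leaving out any other rat gave 0 genes past the cut-offs. Without S1 the log2 fold changes ran from -0.70 (Vip) to 0.82 (Kit), with 0.03 for Tac1 and a median of 0.30. By the scan identifier in the scanner headers, C1 and the 3 S rats shared a scan, with C2 and C3 in another. Each scan is taken here as a slide, which the sample labels do not name. With the slide as a block the comparison rests on C1 against the S rats, within slide 1, and the log2 fold change was 0.88 for Elavl4 (SE 1.1), 0.84 for Kit (SE 0.69) and -0.03 for Vip (SE 1.1).

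**Figure D2:**
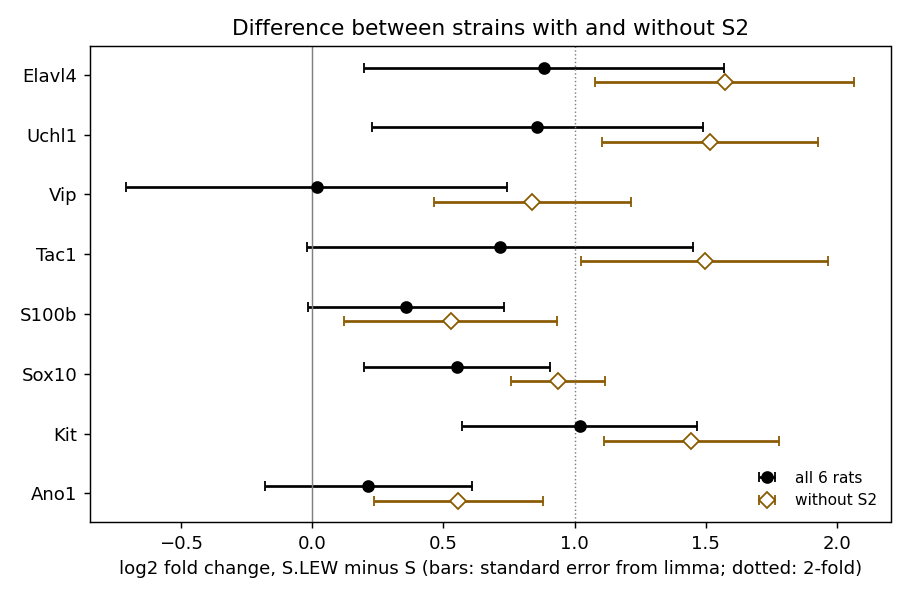
Log2 fold change of S.LEW over S (horizontal axis) with its standard error from limma for the 8 tested genes, with all 6 rats (filled circles) and without S2 (open diamonds). S2 was the highest S rat for each gene, so that each value is necessarily larger without it, from 0.53 for S100b to 1.57 for Elavl4.

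A wider set of 132 genes in 7 lists was examined next, of which 118 were on the array and 109 were tested. In this set 11 genes were higher and 0 lower in the congenic rats at the same cut-offs, that is, 10.1% against 3.79% (higher) and 2.63% (lower) of all 12397 tested genes. The median log2 fold change was 0.72, against 0.03 over all genes, and 93 of the 109 values were above 0. No gene of the set reached an adjusted p under 0.05 in limma. Of the 11 calls, 5 held in the methods' t-test (Ddc, Vipr2, Slc12a2, Gdnf and Artn), 4 with normexp background correction (Ddc, Tacr2, Adrb3 and Slc12a2) and 2 with the slide as a block (Ddc and Artn). Without S2, 64 were higher (58.7%, against 11.3% of all genes) and 3 lower, and the median was 1.21.

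Of the 24 genes for the neuronal cytoskeleton, excitability and transmitter release, 20 were tested. None passed the cut-offs, although all 20 log2 fold changes were above 0, with a median of 0.91. The largest were those of Prph, Rab3c, Snap25 and Gap43. Prph, the intermediate filament peripherin of peripheral neurons, had a log2 signal of 13.13 in C1, 12.45 in C2, 13.56 in C3, 10.62 in S1, 13.33 in S2 and 11.64 in S3, or a log2 fold change of 1.19 (SE 0.69). Snap25, a SNARE protein of synaptic vesicle fusion, gave 1.16 (SE 0.72), the growth cone protein gene Gap43 gave 1.15 (SE 0.71), and Rab3c, a vesicle GTPase, gave 1.18 (SE 0.55). S1 and S3 were the lowest pair in 19 of the 20 genes. Without S2, 16 of the 20 passed the cut-offs, and the log2 fold change was 1.92 for Prph, for Snap25 and for Gap43. Without S1 it was 0.56 for Prph, 0.57 for Snap25 and 0.56 for Gap43, and with normexp background correction that of Rab3c was 0.33.

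Among 11 transcription factors of enteric neurons, 8 were tested and none passed. Hand2, required for enteric neurons to differentiate, differed most, with log2 signals of 11.23 in C1, 11.11 in C2, 11.35 in C3, 8.02 in S1, 11.41 in S2 and 9.36 in S3. The 4 rats other than S1 and S3 lay close together. The log2 fold change of Hand2 was 1.63 (SE 0.80), 2.54 without S2 and 0.85 without S1. Those of Etv1, a factor also known from interstitial cells of Cajal, of Tlx2 and of Tbx3 were 1.42 (SE 0.60), 1.29 (SE 0.62) and 0.93 (SE 0.67). Zeb2 went the other way, with every S rat above every congenic rat and a log2 fold change of -0.34 (SE 0.19). No array had Phox2a well above background.

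Of 23 genes for transmitters, their synthesis and transport, 20 were tested and 1 passed, Ddc, with a median of 0.67. Ddc encodes the decarboxylase that completes the synthesis of serotonin and dopamine, and its log2 signals were 11.20 in C1, 11.48 in C2, 11.02 in C3, 9.62 in S1, 10.29 in S2 and 9.38 in S3. Every congenic rat lay above every S rat, S2 included. The log2 fold change was 1.47 (SE 0.29, limma adjusted p = 0.216) at this probe and 1.70 (SE 0.28) at a dimmer one, and the gene passed with any 1 rat left out. Ddc is also made in enteroendocrine cells, whose markers moved with it. Of 12 such markers 9 were on the array and tested. Of these, 7 (Chga, Chgb, Tph1, Gcg, Neurod1, Pax4 and Slc18a1) were higher in the congenic rats, against 3.79% of all tested genes. Neurod1 did not pass without C2, S2 or S3 (lowest log2 fold change 0.87). Tph1, the serotonin-forming hydroxylase of enterochromaffin cells, had a log2 fold change of 1.37 (SE 0.26), and Chga, a protein of their granules, one of 1.46 (SE 0.36). Summed over the list, the signal was 13478 in C1, 10235 in C2, 12752 in C3, 5941 in S1, 5241 in S2 and 3320 in S3, with Chgb the brightest gene and none below background throughout. Their part in the value of Ddc was not tested.

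The other 19 tested transmitter genes had strains that overlapped, and Calb1, Calca and Nxph1 were too dim to be tested. Among the neuropeptides, Cartpt gave a log2 fold change of 1.04 (SE 0.69), Penk one of 0.98 (SE 0.64) and Gal one of 0.33 (SE 0.86). Gal, which encodes galanin, was like Vip in having S2 far above all other rats, with a log2 signal of 13.33, against 9.75 in S1 and 11.37 to 12.36 in the congenic rats. The cholinergic genes Chat, Slc18a3 and Slc5a7, for the synthesis and vesicular and cellular uptake of acetylcholine and choline, gave 0.45 (SE 0.26), 0.56 (SE 0.46) and 0.89 (SE 0.63). The noradrenergic enzyme gene Dbh gave 1.15 (SE 0.55) and Th, which acts earlier in that pathway, -0.14 (SE 0.28). Tph2, the neuronal hydroxylase for serotonin, gave 1.05 (SE 0.45), with 1 congenic and 2 S arrays well above background. With normexp background correction the log2 fold change was 0.27 for Tph2 and 0.50 for Dbh.

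Receptors and effectors of these transmitters, many of them made by smooth muscle, held 4 of the 11 genes that passed. All 19 genes of this list were tested, with a median of 0.83, and Tacr2, Adrb3, Vipr2 and Gucy1b1 were higher in the congenic rats. Tacr2 encodes the neurokinin receptor NK2, through which tachykinins contract colonic muscle. Its log2 signals were 12.55 in C1, 12.87 in C2, 12.81 in C3, 10.14 in S1, 12.29 in S2 and 10.64 in S3. S2 was again the highest S rat but lay below all congenic rats, and the log2 fold change was 1.72 (SE 0.54, limma adjusted p = 0.331). Adrb3, the β3-adrenergic receptor, had 11.78 in C1, 11.67 in C2, 12.17 in C3, 9.13 in S1, 11.47 in S2 and 9.80 in S3, in the same arrangement, with a log2 fold change of 1.74 (SE 0.58). Vipr2, the VPAC2 receptor for VIP, had 10.05 in C1, 10.61 in C2, 10.56 in C3, 8.89 in S1, 9.71 in S2 and 9.50 in S3. The spread of its S rats was narrower than for Vip itself, and its log2 fold change was 1.04 (SE 0.29, limma adjusted p = 0.285). Gucy1b1, a subunit of the guanylyl cyclase that senses nitric oxide, gave 1.03 (SE 0.37) and 1.3 (SE 0.48) at its 2 probes, with overlap of the strains at the second. Oprm1, the μ-opioid receptor, was the exception in direction among the larger values, with a log2 signal of 9.0 in S1 and 8.78 in S3 and of 6.35 to 6.61 in the other rats, and a log2 fold change of -1.51 (SE 0.69). A dimmer probe of Oprm1 had 4.45 in S1, 4.84 in S2, 4.16 in S3 and 2.22 to 4.93 in the congenic rats. It gave -0.83 (SE 0.66), and 0.45 with the slide as a block.

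The calls of these receptors depended on single rats. Tacr2 did not pass without S3 (log2 fold change 1.52), and Adrb3 not without C1, C3, S1 or S3, with a range of 1.23 to 2.4 over the fits with 1 rat left out. Vipr2 did not pass without C2, C3 or S1, and Gucy1b1 not without C2, C3, S1 or S3, with lowest values of 0.80 and 0.78. Without S2 the log2 fold change was 2.35 for Tacr2 and 2.4 for Adrb3.

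Of 18 further glial genes, 14 were on the array and 12 were tested, with a median of 0.68, and Cdh19 and Sox2 were higher in the congenic rats. Cdh19 encodes a cadherin of Schwann cell precursors and enteric glia. Rat by rat, its log2 signals were 6.27 in C1, 6.48 in C2, 7.47 in C3, 4.20 in S1, 6.10 in S2 and 4.35 in S3, so that S2 lay just under the lowest congenic rat. The log2 fold change was 1.86 (SE 0.58, limma adjusted p = 0.330), with 2.47 without S2. Sox2, a transcription factor of glia and neural crest progenitors, gave 1.5 (SE 0.50) at its brighter probe and 0.85 (SE 0.40) at the dimmer one, where the strains overlapped. Neither gene passed without C3, S1 or S3, where the lowest values were 1.49 and 1.13, with the slide as a block (1.39 and 1.15), with normexp background correction (0.84 and 0.65) or in the methods' t-test. The astrocyte and glial filament gene Gfap had log2 signals of 8.36 in S2, 4.81 in S1 and 6.89 in S3, congenic rats having 6.44 to 7.03, and a log2 fold change of -0.03 (SE 0.84). Gpr37l1 and Art3 gave 1.14 (SE 0.51) and 1.1 (SE 0.72), the latter 0.38 without S1 and 1.86 without S2. No array had Fabp7 or Kcna1 well above background.

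S100b is shared with fat, and 7 of the 8 adipocyte markers were on the array and tested. Adipoq, the adiponectin gene, and Cfd, which encodes adipsin, were higher in the congenic rats, with log2 fold changes of 1.91 (SE 0.57) and 1.57 (SE 0.41), but with the slide as a block neither passed (0.98 and 0.81). The summed signal of the list was 2349 in C1, 3189 in C2, 4220 in C3, 1274 in S1, 2787 in S2 and 1916 in S3, with Pck1 the brightest and none below background throughout. Both S100b and this sum were highest in C3. The mean log2 signal of the list, centered over the 6 rats, was instead highest in C2 (0.61, against 0.52 in C3). The part of fat in S100b was not tested.

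For interstitial cells of Cajal and the PDGFRA-positive cells that lie beside them, 16 further genes were listed and 13 tested. The median was 0.29, lower than in the neuronal lists, and 1 gene passed. Slc12a2, the sodium-potassium-chloride cotransporter that supplies chloride to these cells and also to crypt epithelium, had a log2 signal of 12.05 in C1, 12.28 in C2, 11.76 in C3, 10.78 in S1, 11.47 in S2 and 10.68 in S3. Every congenic rat lay above every S rat, and the log2 fold change was 1.05 (SE 0.28) and 1.06 (SE 0.37) at its 2 probes, the second with overlap. The brighter probe did not pass without C2, S1 or S3, with a lowest value of 0.90. Kitlg, the ligand of Kit, had a log2 fold change of 0.59 (SE 0.28) and no overlap between strains at its brightest probe, but overlap at its other 2 probes. Kcnn2, a small-conductance potassium channel, gave 1.51 (SE 0.77), the T-type calcium channel gene Cacna1h gave 0.92 (SE 0.51) and the gap junction gene Gjc1 gave 0.63 (SE 0.46). Pdgfra itself gave 0.11 (SE 0.34), and Itpr1 gave -0.14 (SE 0.26).

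Of 21 genes for neurotrophic factors, their receptors and axon guidance, 17 were tested, with a median of 0.44, and Gdnf, Artn and Sema3a were higher in the congenic rats. Gdnf, the factor that draws enteric neural crest cells into the gut and acts through Ret, had a log2 signal of 7.81 in C1, 7.49 in C2, 8.22 in C3, 5.47 in S1, 7.04 in S2 and 5.70 in S3. Every congenic rat lay above S2, the highest S rat, and the log2 fold change was 1.77 or 3.41-fold (SE 0.45, limma adjusted p = 0.272). Artn, the related factor artemin, had 8.39 in C1, 8.47 in C2, 8.62 in C3, 7.27 in S1, 7.51 in S2 and 6.86 in S3. For this gene S2 was close to the other S rats and not to the congenic rats, and the log2 fold change was 1.28 (SE 0.22, limma adjusted p = 0.203). Gdnf and Artn passed with any 1 rat left out, from 1.47 to 2.25 and from 1.11 to 1.43. Neither passed with normexp background correction (0.98 and 0.90), nor Gdnf with the slide as a block (1.74). Sema3a, a repellent for growing axons, gave 1.28 (SE 0.41) but did not pass without C3, S1 or S3, with a lowest value of 0.94.

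At their brightest probes the receptors of these factors did not pass. Ret gave a log2 fold change of 0.55 (SE 0.52), Gfra1 one of 0.08 (SE 0.35) and Ednrb, the endothelin receptor needed for colonization of the colon by neural crest, one of 0.63 (SE 0.43). The dimmer probes of Ret gave -0.14 (SE 0.28) and 0.18 (SE 0.56). Gfra3, the receptor for artemin, went the other way from its ligand, with -1.27 (SE 0.54) and signals of 7.71 in S1 and 7.94 in S3, the other rats having 5.73 to 6.37. The probes of Ntrk2 disagreed. The brightest gave -0.05 (SE 0.43), whereas a dim one was well above background in all congenic rats and in no S rat, and passed the cut-offs, with an S.LEW signal at least 3.78-fold higher (limma adjusted p = 0.193). This dim probe entered the test only through the congenic rats, where it was high. No array had Bdnf, Ntn1 or Dcc well above background.

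**Figure D3:**
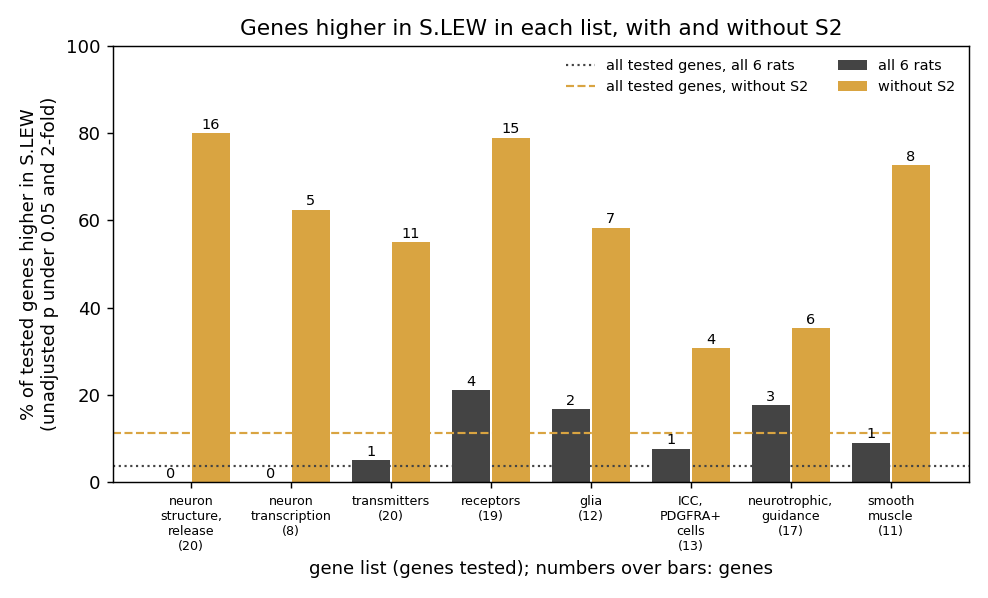
Share of the tested genes of each list that were higher in S.LEW at an unadjusted p under 0.05 and 2-fold (vertical axis, percent; the number of genes is above each bar), with all 6 rats and without S2, beside the shares over all tested genes (lines at 3.79% and 11.3%). Without S2 the share is larger in each of the 8 lists shown, up to 16 of 20 genes for neuronal structure and release.

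Smooth muscle markers shared with the neuronal genes their lowest rats, S1 and then S3, while the order of the other 4 rats differed. Of 12 such markers 11 were on the array and tested, all 11 had S1 and S3 as the lowest pair, and their median log2 fold change was 0.98. Smtn, which encodes smoothelin, passed the cut-offs (1.12, SE 0.46), but only with all rats or without S2 (1.65), and not in the methods' t-test. Together these markers had a summed signal of 692385 in C1, 723430 in C2, 793077 in C3, 217494 in S1, 823245 in S2 and 438470 in S3, its brightest gene being Actg2, and each marker was above background. On the scale of the mean log2 signal centered over the 6 rats, smooth muscle stood at -1.52 in S1, -0.61 in S3 and 0.74 in S2, and the neuronal structure list at -1.26, -0.76 and 0.69. The part of smooth muscle content in the values of the neuronal, glial and pacemaker genes was not tested.

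Lymphoid markers had the opposite arrangement. Of 12 such genes, 10 were on the array and 5 were tested, since the other 5 were well above background in S1 and S3 only. Lck, a kinase of T cells, had log2 signals of 11.25 in S1, 11.17 in S3, 5.92 in S2 and 5.74 to 6.20 in the congenic rats, and was lower in the latter at the cut-offs, as were Cd3d and Cd3g. With 1 rat left out Lck and Cd3d passed only without S2, and Cd3g not without C3 or S3 (-1.84). None of the 3 passed in the methods' t-test or with the slide as a block. The summed signal of the list was 1840 in C1, 1395 in C2, 1333 in C3, 62816 in S1, 1713 in S2 and 48628 in S3, with Cd3d the brightest on average. The rats with high lymphoid signals were thus those with low signals of Elavl4, Uchl1, Tac1, Sox10 and Kit, and the part of lymphoid tissue in these values was not tested.

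**Figure D4:**
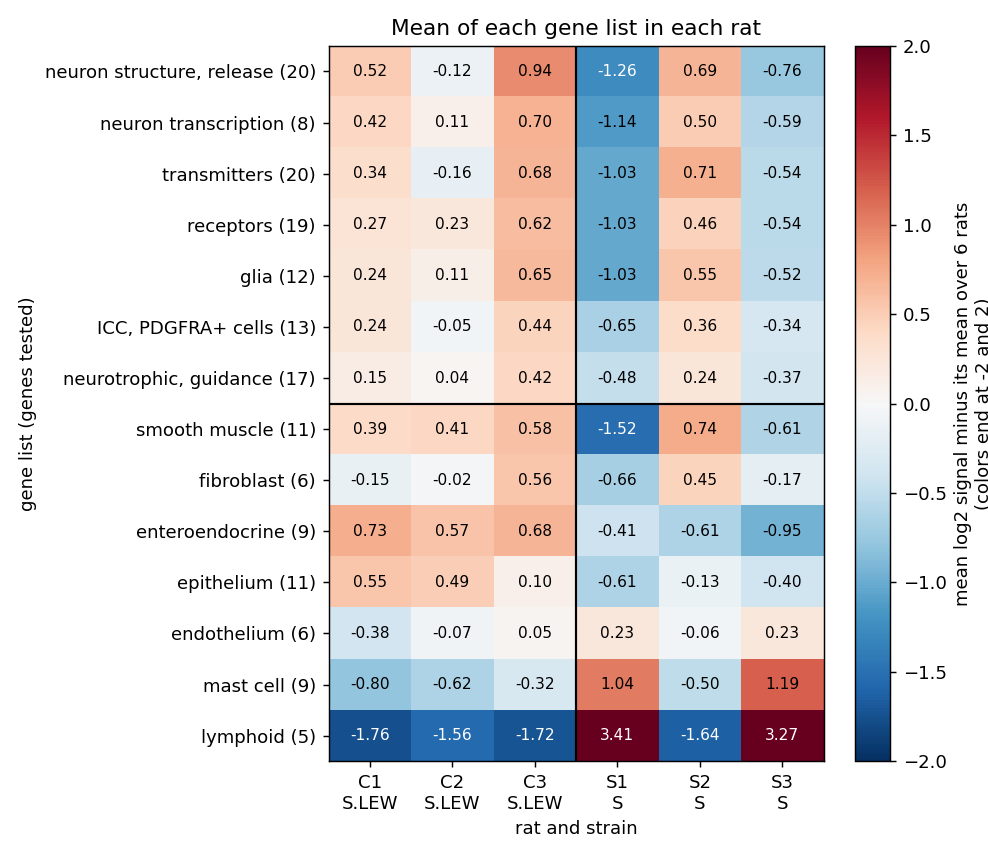
Mean log2 signal of each gene list, centered on its mean over the 6 rats (color and number), for the 3 S.LEW and the 3 S rats, with the number of genes tested beside each list and the 7 lists of the enteric nervous system above the line. S1 and S3 are below 0 in all 7 and in smooth muscle, where S2 is between 0.24 and 0.74, and they are at 3.41 and 3.27 in the lymphoid list. S1 and S3 are also below 0 in the fibroblast (-0.66 and -0.17), epithelial (-0.61 and -0.40) and enteroendocrine (-0.41 and -0.95) lists.

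The genes most like Vip over the 6 arrays were sought among 12393 other genes, by the root mean square difference between log2 profiles after each was centered on its own mean. The closest were Dmkn (0.13), Plcl1 (0.13), Col8a1 (0.14), Adgrl2 (0.14) and Cxcl14 (0.20). Col8a1 encodes a network-forming collagen, Adgrl2 a latrophilin of cell adhesion and Cxcl14 a chemokine. Each had S1 as the lowest and S2 as the highest rat, as in Vip, and a log2 fold change between -0.24 and 0.21. The nearest of the member genes was Tac1, at rank 165 (0.43), followed by Uchl1 at rank 455 (0.53) and Ano1 at rank 503 (0.54), and the farthest was S100b at rank 4631 (0.86).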

How the data were processed

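Images were extracted by the authors in Agilent Feature Extraction 11.0.1.1 (version from the submitters' processing notes). Their deposited files hold 1 background-corrected intensity per spot, not normalized between arrays. The authors also deposited log2 values for 23997 probes, quantile-normalized and filtered on detection. Their array medians were 8.57 (C1), 8.57 (C2), 8.57 (C3), 8.55 (S1), 8.57 (S2) and 8.55 (S3), and they correlated at 0.9999 or more with the values printed.

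From the intensities, control and outlier-flagged spots were dropped, log2 values of the spots of a probe averaged, arrays quantile-normalized, and probes detected (well above background) on 3 or more of 6 arrays tested with limma 3.58.1 in R 4.3.3 (no covariates; Benjamini-Hochberg adjustment over all 23975 probes), following the cut-offs and filter of the study's methods. The fit was also run on simulated data in which both strains had the SD of the S.LEW arrays. The wider spread of the S rats was not simulated. For the tested member probes, the deposited log2 values gave log2 fold changes within 0.02 of those printed. RefSeq accessions of GRCr8 named 18005 of 30367 probes.

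The members and lists were chosen with earlier results of these data known. Text names all members, genes past the cut-offs in the 7 lists, and otherwise the largest changes, up to 4 a list; further genes (such as Zeb2, Oprm1, Gfap and Gfra3) were singled out after their values were seen. Figures used matplotlib 3.10.9.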

Additional observations from a re-analysis of the deposited data

How the results depend on the processing

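For Nos1, whose probes were dim, no fold change could be given. The number of probes past the cut-offs was 1338. It was 734 with normexp background correction, 686 with the methods' t-test, 776 with the slide as a block, 631 within slide 1 (an alternative chosen after seeing the data, with C1 alone for its strain and assumed to vary like the S rats), 3641 with array weights, and 662 to 4124 with 1 rat left out. At an adjusted p under 0.05 limma gave 0 probes (3108 at an unadjusted p under 0.05), 1 with scaling to the 75th percentile, 8543 with array weights and 0 to 5560 with 1 rat left out, the highest without S2 and 41 without S1. The methods' t-test gave 0. Of the member genes 0 passed, 3 with array weights and 0 to 4 with 1 rat left out, and the genes whose strains did not overlap numbered 0 to 6. The median log2 fold change of the members, 0.63, was 0.55 with no filter, where Nos1 enters, 0.60 within slide 1 and 0.30 to 1.19 with 1 rat left out. The cause was not tested beyond what leaving out S2 shows.

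The paper states that each cage held an S rat and a congenic rat, but not whether same-numbered rats were cage mates. Same-numbered rats' deviations correlated at -0.02, -0.13 and -0.06 over 23968 probes. With the replicate block 1535 probes and 0 member genes passed, with a median of 0.63, and the block changed no other call of a member.

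The sign of the difference turned for Vip with normexp correction (-0.0523), with the slide as a block and within slide 1 (-0.0270 each), and over -0.70 to 0.84 with 1 rat left out. It turned for Ano1 (-0.12 to 0.56 with 1 rat left out), and among the markers of other cell types that the naming rule picked for Col1a1 (-0.10 to 0.82), Col1a2 (-0.0653 with the slide as a block and within slide 1, and -0.0560 to 0.57) and Wt1 (-0.0064 with either, and -0.0766 to 0.68). Among genes singled out after their values were seen it turned for Gal (-0.57 to 1.22 with 1 rat left out), Gfap (-0.97 to 0.81), Pdgfra (-0.15 to 0.37) and Itpr1 (-0.34 to 0.0515). It also turned for Th (-0.37 to 0.0014, with 0.33 with the slide as a block and within slide 1 and 0.0987 with array weights), Gfra1 (-0.13 to 0.44, with -0.0303 with the slide as a block and within slide 1) and the brightest probe of Ntrk2 (-0.34 to 0.36, with 0.55 with the slide as a block and within slide 1 and 0.26 with array weights). Other genes of the lists were not followed here. Over all settings, 124 of 139 values of the 8 members kept their sign and their side of the cut-offs, 7 newly passed and 8 turned. Of 1467 values of 87 list genes, 1221 kept both, 134 no longer passed, 81 newly passed and 31 turned.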

Other observations

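Low signals in S1 and S3 were not confined to nerve and muscle genes. These rats were the lowest pair in 8 of 11 epithelial and 4 of 6 fibroblast markers, against 28.3% of all probes. Of 12 epithelial markers 11 were tested, and Vil1, the villin gene of the brush border, was higher in the congenic rats (log2 fold change 1.01, standard error 0.28), but not without C1, C2, S1 or S3, with a lowest value of 0.87. The 11 values were all above 0, as were 51.3% of all probes, with a median of 0.80, against 0.03 over all genes. In 7 of the 11 genes the strains did not overlap, against 17.7% of all probes. For this list the signals summed to 262507 in C1, 233947 in C2, 199470 in C3, 126494 in S1, 152415 in S2 and 126011 in S3, with Lgals4 the brightest gene. Of 6 fibroblast and 7 endothelial markers, 6 and 6 were tested and none passed, with medians of 0.23 and -0.26, and likewise none of the 4 mesothelial markers tested.

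Striated muscle markers were mixed. Of 11 such markers 8 were tested, and Myh1, Mybpc1 and Tnnt3 were lower in the congenic rats, against 2.63% of all tested genes. Mybpc1, a myosin-binding protein of slow fibers, was well above background in all S rats and no congenic rat, which bounds its S.LEW signal as 7.29-fold lower or more, and that of the fast myosin gene Myh1 as 2.13-fold lower or more. Myh1 was likewise detected in the S rats alone, so both genes entered the test only through the strain where they were high. Here S2 was with its own strain, with a log2 signal of 7.63 for Mybpc1 against 8.23 in S1, 7.80 in S3 and 4.02 to 4.81 in the congenic rats. The whole list did not follow this order, its summed signal being 20555 in C1, 19756 in C2, 24603 in C3, 10494 in S1, 41859 in S2 and 19488 in S3. Its brightest gene was Ckm.

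Several limits apply to all these values. Each strain had 3 rats, all treated with AOM and killed at 1 age, so that effects of the carcinogen and of age could not be estimated. The colon was measured as whole tissue, and the share of each layer of the wall in a sample is unknown. C2 and C3 were alone in their scan, taken here as a slide, so that for these rats slide and strain cannot be told apart. Why S2 differed from the other S rats was not tested, nor whether its label was exchanged with that of another rat or its piece of colon taken differently, and every S mean and every value without S2 depends on this. S2 lay with the other S rats for Myh1, at a log2 signal of 5.99 against 2.39 to 2.90 in the congenic rats. The same held for Gcg (6.15 against 7.82 to 8.97) and Artn (7.51 against 8.39 to 8.62). Its array as a whole, however, correlated more closely with the congenic arrays. Signals measure RNA, and no protein, cell count or motility was measured.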
